A study of Mus musculus with 12 samples.

Results

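The data described here are liver transcript levels of control mice 2 h after an injection of hepatocyte growth factor (HGF), set against control mice without it. They come from 6 of the 12 arrays of the series, 3 with HGF and 3 without, taken by the sample titles. The control mice carried Met alleles flanked by loxP sites (c-Met loxP/loxP) and no Cre deletion is named for them, so both groups keep the HGF receptor. The treated mice received 2 µg recombinant mouse HGF into the peritoneum. The labels speak of HGF or NaCl and of a state before and after injection, and it is not clear whether the mice without HGF were injected at all. A difference between the groups therefore cannot be told apart from one caused by injection or handling. Age, sex and strain of these mice were not given in the sources used here. RNA was total RNA from frozen liver, each array held 1 animal, and the animals of a group were treated in parallel. P-values below measure only the spread between these animals.

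HGF is secreted by non-parenchymal cells of the liver and binds Met, a receptor tyrosine kinase on hepatocytes. Met signals through the adaptor proteins to the ERK, PI3K and STAT3 pathways, and in liver it is known for hepatocyte growth, motility, survival and regeneration after injury. Early responses to such receptors start with immediate early genes, whose transcription needs no new protein, and feedback inhibitors of the same pathways.

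The labelled tissue was borne out by its markers. All 15 hepatocyte markers on the array were tested, 0 of them were called, and their summed intensity was 188000 to 189000 on the arrays without HGF and 185000 to 188000 with it. The 6 arrays were alike in range, with 38.1% to 38.4% of probe sets at a log2 value of 4 or more. Pearson's r across tested probe sets was 0.991 to 0.992 between arrays without HGF, 0.976 to 0.99 between arrays with HGF and 0.923 to 0.957 between the groups. HGF replicate 1 stood apart on the second principal component, at 22.81 against -14.44 and -10.31 for HGF replicates 2 and 3; that component held 13.05% of the variance and the first 75.57%. Counts without each array are given where they matter.

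Values are log2(intensity + 1), and a probe set was tested where this was at least 4 on at least 3 of the 6 arrays, which left 6400 of 16475. A gene is said to rise or fall below only where limma called it at a Benjamini-Hochberg adjusted p under 0.05. Differences are HGF minus without HGF with their standard error (SE), and folds of dim genes are uncertain in size. Values of single arrays are listed as replicates 1, 2 and 3.

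With HGF, 429 of the 6400 tested probe sets rose (6.70%) and 325 fell (5.08%). The rises were much larger than the falls. Among the called genes, 262 rose and 82 fell by at least 2-fold (344 together, 5.38% of those tested), 125 rose and 16 fell by at least 2 log2 units, and 37 rose and 4 fell by at least 4. The median called rise was 1.27 and the median called fall -0.72. Differences of called genes ran from -5.90 for G0s2 to 8.86 for the metallothionein gene Mt2. Over all tested probe sets the median difference was -0.09, so a small negative value is the common case. The groups did not overlap for any of the 754 called genes, but the same held for 2406 tested probe sets (37.6%), 892 of them higher with HGF and 1514 lower, so a gap between the groups is common in these data.

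**Figure D1:**
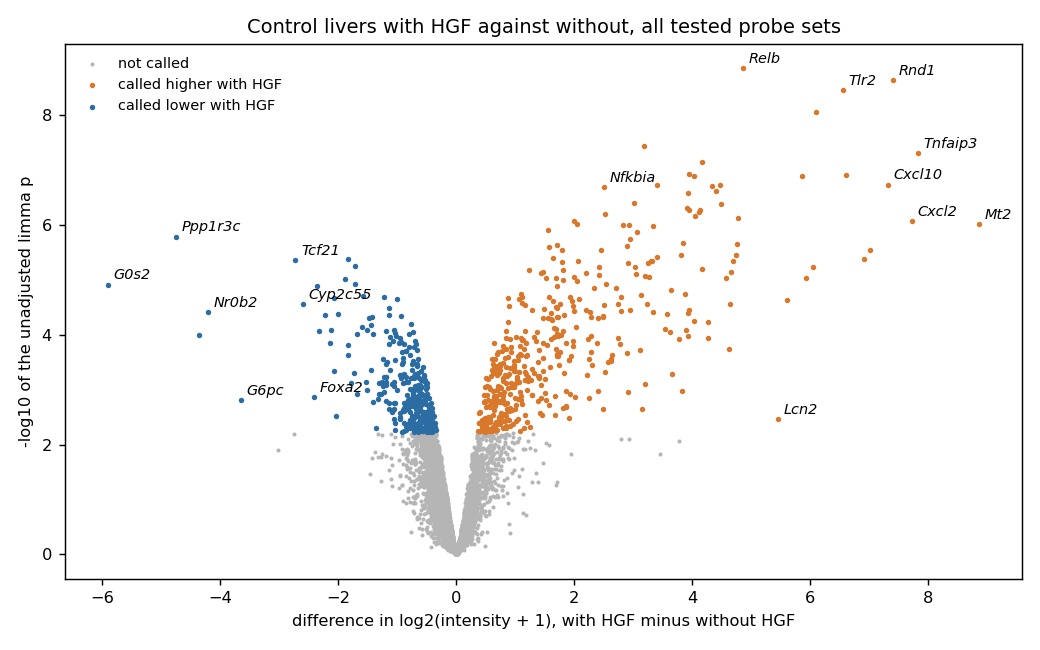
Difference in log2(intensity + 1), with HGF minus without (x axis), against -log10 of the unadjusted limma p (y axis) for the 6400 tested probe sets. Orange points are the 429 called higher and blue points the 325 called lower; the orange points reach 8.86 and the blue points -5.90.

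These counts rest on the spread among the 6 control arrays. When the 6 arrays of the other genotype shared the estimate of the spread, limma called 36 probe sets (23 higher, 13 lower), all of them among the 754. Leaving out 1 array at a time gave 390 to 948 calls: 424, 390 and 391 without replicate 1, 2 or 3 of the group without HGF, and 948, 505 and 700 without HGF replicate 1, 2 or 3. Of the 754, 334 were called in all 6 of those fits, 253 higher and 81 lower. No sign could turn in these fits, because the groups did not overlap for any called gene. Many of the rises start near background: 89 of the 429 had all 3 arrays without HGF under a log2 value of 4, where the fold is uncertain. Of the 325 falls, 47 ended with all 3 HGF arrays under it. Such probe sets passed the minimum only through the group where they were higher. In all, 104 tested probe sets were under 4 on all 3 arrays without HGF and 67 on all 3 with HGF. List counts below include such genes, among them Tnfaip3, Relb, Ier3, Tlr2, Cd14, Cxcl2 and Il1b, and are not independent of the filter.

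**Figure D2:**
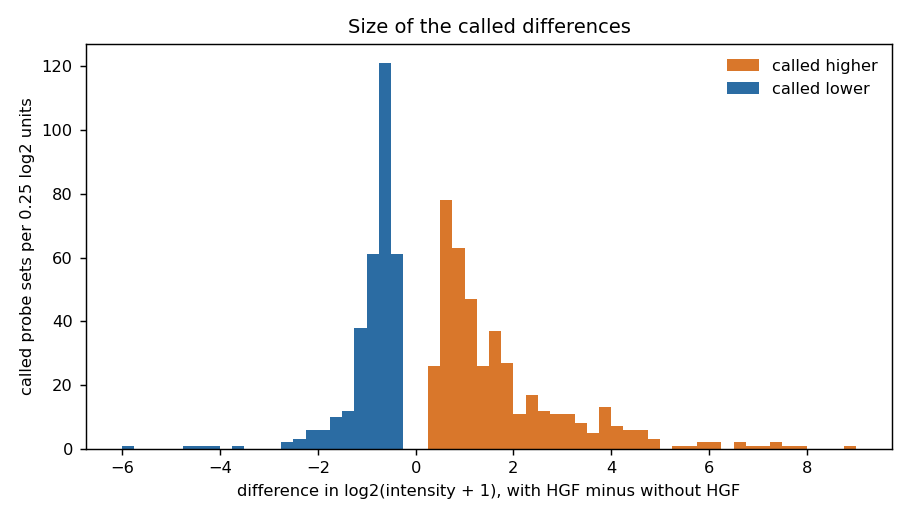
Number of called probe sets per bin of the difference in log2(intensity + 1), with HGF minus without (x axis), higher with HGF in orange and lower in blue. At a difference under 1 there were 167 risers and 243 fallers, and at 4 or more there were 37 and 4.

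The receptor gene was not called and the ligand gene was too dim to test. Met, the receptor gene, lay at 6.62, 6.84 and 6.77 without HGF, against 6.59, 6.78 and 7.02 with it (difference 0.05, SE 0.14, limma adjusted p = 0.832), and the groups overlapped. Hgf itself was under the minimum on all arrays, at 3.54, 3.55 and 3.47 without and 3.58, 3.31 and 3.24 with HGF; the injected protein adds no transcript. Of the 12 tested genes of the HGF and Met pathway, 2 rose and 0 fell. Lrig1, a transmembrane protein that restrains ErbB receptors and Met, rose from 5.48, 5.42 and 5.48 to 7.31, 7.21 and 6.96 (1.70, SE 0.12, 3.25-fold). Every HGF array was at least a log2 unit above every other. Plxnb1, a semaphorin receptor that associates with Met, rose by 0.60 (SE 0.15), close to the threshold at limma adjusted p = 0.0487; the call ended without any 1 of 5 arrays. The docking protein gene Gab1 (-0.22) and the adaptor gene Shc1 (-0.42) were not called.

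Immediate early genes were among the groups with most calls. Of 22 tested members 17 rose, 0 fell, and the median difference was 2.28, or 1.49 with a pseudocount of 16 in place of 1. Gadd45g, a stress and growth arrest gene, lay at 4.06, 4.50 and 4.37 in the untreated livers and at 10.55, 10.58 and 10.10 with HGF (6.10, SE 0.18, 68.7-fold). Ier3 rose from 3.23, 2.65 and 3.04 to 6.75, 8.31 and 7.57 (4.57, SE 0.38). The AP-1 subunit gene Junb rose from 3.68, 4.01 and 4.39 to 8.24, 8.60 and 8.64 (4.46, SE 0.20). In each of these the lowest HGF array was more than 3 log2 units above the highest array without it. Its partner Jun rose less, by 2.53 (SE 0.40), and Fosl2 by 1.57 (SE 0.15). The stress factor Atf3 rose by 2.79 (SE 0.26), Maff by 3.06 (SE 0.19) and the antiproliferative gene Btg2 by 4.11 (SE 0.22).

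Egr1, a zinc finger factor that answers ERK, was not called. It lay at 5.09, 7.01 and 3.68 without HGF, against 7.63, 8.35 and 8.59 with it (2.93, SE 0.78, limma adjusted p = 0.0586). The groups did not overlap, but the arrays without HGF spanned more than 3 log2 units. Fos was too dim to test, at 2.26, 2.33 and 2.19 without and 2.96, 3.55 and 4.50 with HGF, and so was Myc, at 3.15, 3.14 and 3.01 without and 3.65, 4.68 and 4.41 with it. Both were higher on every HGF array, near the minimum.

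Feedback genes of the ERK and ErbB pathways were less uniform. Of 6 tested ERK feedback genes, 4 rose and 1 fell. Phlda1 rose from 8.54, 8.75 and 8.76 to 10.34, 11.51 and 11.06 (2.29, SE 0.28), and Errfi1, an inhibitor of the EGF receptor, by 1.06 (SE 0.18). Dusp1, a phosphatase of MAP kinases in the nucleus, rose by 1.51 (SE 0.29). Dusp6, which removes phosphate from ERK in the cytoplasm, fell from 7.75, 7.46 and 7.10 to 6.37, 6.70 and 6.60 (-0.88, SE 0.18). The calls of Dusp1 and Dusp6 each ended without any 1 of 4 arrays, with limma adjusted p up to 0.0803 and 0.0921. The Sprouty genes Spry1, Spry2 and Spry4 did not reach the minimum and were not tested. Nrg4, a ligand of ErbB4, rose from 2.80, 2.97 and 2.85 to 6.95, 5.87 and 5.13 (3.11, SE 0.42), with HGF replicate 3 the nearest to the arrays without HGF.

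**Figure D3:**
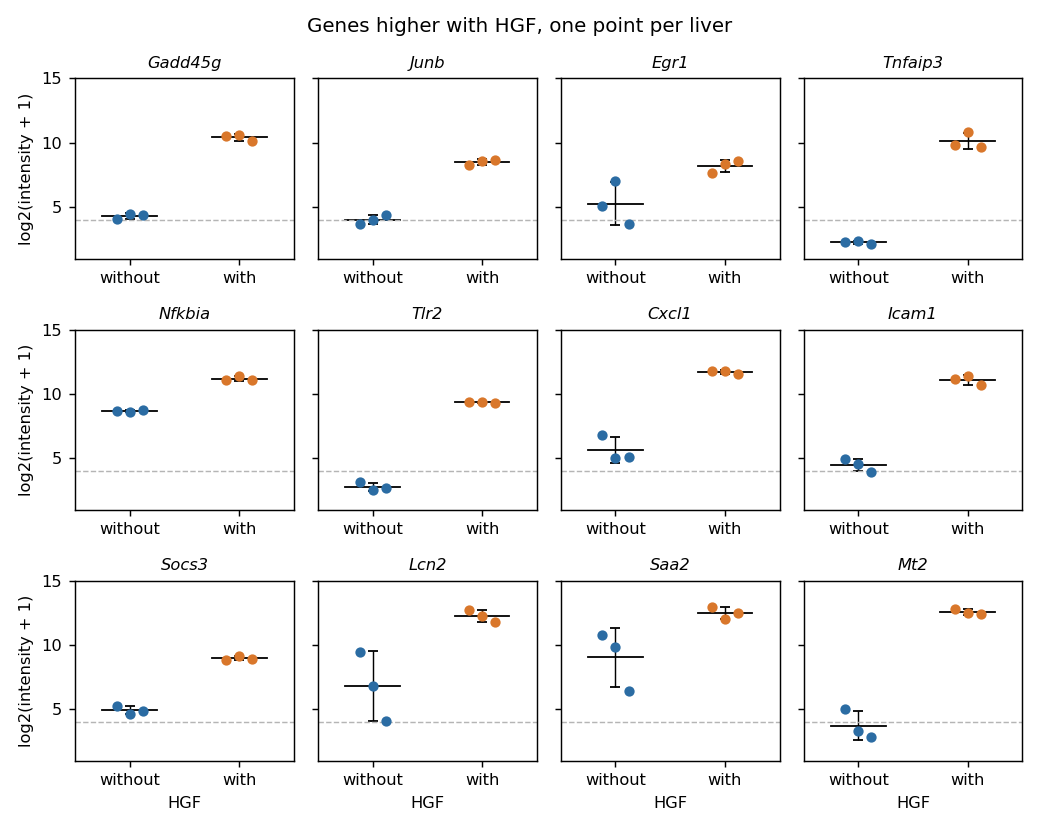
Log2(intensity + 1) of 12 genes that were higher with HGF (y axis), one point per liver, without HGF in blue and with it in orange; black bars are means and error bars SD over 3 livers, and the dashed line is the minimum of 4. For Egr1 and Saa2, which were not called, the livers without HGF spread over more than 3 log2 units.

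Most genes of the NF-kappaB pathway rose. NF-kappaB factors sit in the cytoplasm bound to inhibitors, enter the nucleus when these are degraded, and induce their own inhibitors. Of 15 tested genes on the list of subunits and inhibitors, 12 rose, 0 fell, and all 15 differences were positive, with a median of 2.95. Some, Tnfaip3 and Relb among them, reached the minimum only through the HGF arrays, so this count is not independent of the filter. Tnfaip3 (A20), an enzyme that ends NF-kappaB signalling, lay at 2.31, 2.38 and 2.15 in the untreated livers and at 9.85, 10.82 and 9.66 with HGF (7.83, SE 0.29). Its starting values were near background, so its 228-fold rise is uncertain in size. Nfkbia, the inhibitor I-kappaB-alpha, was bright in both groups and rose from 8.66, 8.62 and 8.74 to 11.10, 11.39 and 11.06 (2.51, SE 0.12, 5.69-fold). Nfkbie, another inhibitor, rose by 4.14 (SE 0.22). Bcl3 and Nfkbiz, also on the list, rose by 3.18 (SE 0.11) and 2.95 (SE 0.19).

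The subunits rose as well. Relb lay at 2.45, 2.35 and 2.53 without HGF, against 7.44, 7.29 and 7.18 with it (4.86, SE 0.11); it had the smallest p of all tested genes. Nfkb2, which is processed to the partner of Relb, rose by 3.0 (SE 0.15). Rela, the main activating subunit, rose from 8.07, 7.91 and 8.07 to 9.61, 9.71 and 9.45 (1.57, SE 0.11), and Rel by 2.48 (SE 0.52); the call of Rel ended without any 1 of the arrays without HGF (limma adjusted p up to 0.0927). Ikbke, a kinase of the pathway, rose by 3.27 (SE 0.27), and the adaptor gene Tifa from 5.56, 3.65 and 3.77 to 10.39, 10.34 and 10.03 (5.93, SE 0.49). Cyld and Traf2, which act by ubiquitin, were not called, at 0.74 and 0.43.

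The start regions of the risers were searched for sites of these factors in RefSeq promoter windows (GRCm38.p6) covering 250 bases before the gene start, on both strands. Windows were found for 5088 of the 6159 tested genes with a symbol. A match to the kappaB consensus was in the windows of 267 of these 5088 genes (5.25%). Of the risers with a window 42 of 343 had one (12.2%), and of the risers by at least 2 log2 units 19 of 97 (19.6%). Of the fallers 9 of 247 had one (3.64%), and of those that fell by at least 1 log2 unit 0 of 60. The AP-1 site, TGACTCA or TGAGTCA, was in 4.13% of all, 11.3% of the risers by at least 2 and 2.02% of the fallers; 3 risers held both a kappaB and an AP-1 match. The STAT site TTCNNNGAA was in 7.1%, 12.4% and 6.48% of the same sets, and the interferon-stimulated element in 3.03%, 6.19% and 0.81%. A gene with several start sites counts once if any of its windows matches. A match is a string of letters and does not show binding.

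The 6 risers with the largest difference among those with a kappaB match in the 180 bases before the start are shown because their rises were among the largest in the data. The sequences end at the base before the start, run 5′ to 3′ along the gene, and carry their kappaB matches in capitals; matches on opposite strands overlap in Cxcl2, Tlr2 and Cxcl1. Their positions are Tnfaip3 (chr10:19015411-19015590, minus strand), Cxcl2 (chr5:90903719-90903898, plus strand), Cxcl10 (chr5:92348890-92349069, minus strand), Tlr2 (chr3:83841609-83841788, minus strand), Cxcl1 (chr5:90891065-90891244, plus strand) and Ier3 (chr17:35821533-35821712, plus strand).
Tnfaip3: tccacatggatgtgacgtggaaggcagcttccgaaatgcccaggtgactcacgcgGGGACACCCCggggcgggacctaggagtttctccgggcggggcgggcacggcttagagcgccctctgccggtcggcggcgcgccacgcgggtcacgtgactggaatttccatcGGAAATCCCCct
Cxcl2: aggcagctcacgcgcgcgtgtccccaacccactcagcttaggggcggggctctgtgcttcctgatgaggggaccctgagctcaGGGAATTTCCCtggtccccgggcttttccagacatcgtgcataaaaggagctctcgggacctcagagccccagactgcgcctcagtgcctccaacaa
Cxcl10: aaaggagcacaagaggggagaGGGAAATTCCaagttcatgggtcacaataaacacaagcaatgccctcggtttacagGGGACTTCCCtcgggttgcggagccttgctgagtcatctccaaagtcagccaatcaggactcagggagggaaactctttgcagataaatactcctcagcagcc
Tlr2: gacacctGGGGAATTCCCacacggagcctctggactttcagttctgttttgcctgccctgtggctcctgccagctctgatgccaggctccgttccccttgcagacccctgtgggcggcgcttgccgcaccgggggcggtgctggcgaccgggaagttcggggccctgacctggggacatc
Cxcl1: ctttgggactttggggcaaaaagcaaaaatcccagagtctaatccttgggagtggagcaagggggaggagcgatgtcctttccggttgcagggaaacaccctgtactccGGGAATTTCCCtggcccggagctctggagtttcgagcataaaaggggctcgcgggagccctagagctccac
Ier3: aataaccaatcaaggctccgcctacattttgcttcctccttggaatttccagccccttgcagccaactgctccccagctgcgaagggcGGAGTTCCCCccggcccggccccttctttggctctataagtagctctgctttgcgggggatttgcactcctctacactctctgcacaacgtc
The nearest match begins 12 bases before the start in Tnfaip3, 70 in Cxcl1, 92 in Ier3, 96 in Cxcl2, 103 in Cxcl10 and 172 in Tlr2.

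Receptors and adaptors that feed NF-kappaB rose with it. Of 14 tested Toll-like and interleukin receptor genes and adaptors, 9 rose and 0 fell, with a median of 2.10, or 1.36 with a pseudocount of 16. Tlr2, a receptor of bacterial lipoproteins, lay at 3.13, 2.50 and 2.70 in the untreated livers and at 9.34, 9.37 and 9.31 with HGF (6.56, SE 0.17, 94.5-fold); the HGF arrays were nearly equal. Cd14, the co-receptor that hands lipopolysaccharide to Toll-like receptors, rose from 3.41, 3.06 and 2.81 to 8.26, 8.16 and 7.14 (4.76, SE 0.32), and Lbp, the serum protein that loads it, by 2.55 (SE 0.22). The shared adaptor gene Myd88 rose from 6.14, 6.38 and 6.37 to 9.01, 8.87 and 8.58 (2.52, SE 0.14). The interleukin-1 receptor gene Il1r1 rose by 2.95 (SE 0.30), and 2 brakes on it rose too, the receptor antagonist Il1rn by 4.26 (SE 0.48) and the inhibitory kinase Irak3 by 3.13 (SE 0.29). Tlr4 was not tested, at 3.07, 2.87 and 2.86 without and 2.98, 3.11 and 3.02 with HGF.

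Of the cytokine genes only 4 of the 22 on the array could be tested. Il1b rose from 3.67, 2.73 and 3.19 to 5.50, 7.85 and 7.20 (3.65, SE 0.59), Il1a by 2.79 (SE 0.29) and Csf1, the macrophage growth factor, by 1.58 (SE 0.24). HGF replicate 1 was the lowest of the treated arrays for Il1b and replicate 2 the highest. Tnf lay at 2.99, 2.72 and 2.61 without HGF, against 3.75, 5.14 and 3.56 with it. Il6 lay at 2.08, 2.17 and 1.72 without and at 2.60, 3.13 and 2.69 with HGF. Both were higher on every HGF array, and Tnf in HGF replicate 2 alone passed the minimum.

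Chemokine genes had some of the largest rises. Of 11 tested, 8 rose and 1 fell, with a median of 3.93, or 2.27 over the members that passed the minimum on all 6 arrays. Cxcl2, which attracts neutrophils, lay at 2.29, 2.14 and 2.31 in the untreated livers and at 9.44, 11.11 and 9.38 with HGF (7.73, SE 0.45). Its neighbour Cxcl1, of like function, rose from 6.84, 5.00 and 5.13 to 11.77, 11.78 and 11.56 (6.05, SE 0.47, 66.2-fold). Cxcl10, which attracts T cells and answers interferon, rose from 5.03, 5.48 and 4.19 to 12.06, 12.58 and 12.02 (7.32, SE 0.34). The treated arrays were close together in the last 2 and more than 4 log2 units above the others. Cxcl9 rose by 4.16 (SE 0.33), the monocyte chemokine Ccl2 by 3.93 (SE 0.41) and Ccl5 by 3.62 (SE 0.43). Cxcl12, a homeostatic chemokine, fell from 8.50, 8.41 and 8.62 to 8.16, 8.06 and 8.04 (-0.42, SE 0.10), a call that ended without any 1 of 5 arrays.

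Adhesion genes that leukocytes bind rose with the chemokines. Icam1 lay at 4.91, 4.58 and 3.95 without HGF, against 11.13, 11.41 and 10.70 with it (6.60, SE 0.28, 97.1-fold), and Vcam1 rose by 3.03 (SE 0.24); 4 other tested members were not called. Sele, the endothelial selectin, was too dim to test and lay at 2.27, 1.88 and 2.08 without HGF and 3.80, 6.37 and 4.25 with it.

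Some markers of neutrophils were higher with HGF too. Of the 15 on the array 4 were tested, and all 4 rose. The others were too dim to test, so this count covers the brighter markers alone and is not independent of the filter. S100a9, a calcium-binding protein of neutrophils, lay at 4.70, 4.25 and 3.33 in the untreated livers and at 9.51, 10.74 and 8.84 with HGF (5.60, SE 0.54), S100a8 rose by 4.62 (SE 0.62) and the formyl peptide receptor gene Fpr2 by 3.94 (SE 0.21). The fourth was the granule protein gene Lcn2, which the liver also makes in the acute phase. The summed intensity of the 15 was 104 to 864 without HGF and 4500 to 8330 with it, much of it from Lcn2; the other 14 summed to 88.1 to 146 and 1040 to 3320. The granule collagenase gene Mmp8 was not tested, at 2.13, 2.24 and 2.06 without and 4.51, 5.18 and 3.22 with HGF. Cxcr2, not tested either, overlapped between the groups, at 4.12, 3.09 and 3.4 without and 3.74, 4.27 and 3.59 with HGF. The granule genes Camp, Elane, Ltf, Mmp9, Mpo and Ngp were under the minimum on all 6 arrays, as were Cxcr4 and Il1r2. Below that minimum Mmp9, Ngp and Il1r2 were higher on every HGF array, while Camp, Elane, Ltf, Mpo and Cxcr4 overlapped between the groups. In whole liver, more cells of a type and more RNA per cell cannot be told apart, nor can fewer cells and less RNA. The part of arriving cells in the rises of chemokine, receptor and cytokine genes was not tested.

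The interleukin-6 pathway and the acute phase, the change in secreted liver proteins during inflammation, moved mainly upward. Of 14 tested genes of interleukin-6 signalling and the SOCS family, 10 rose and 1 fell. Socs3, the feedback inhibitor of STAT3, lay at 5.27, 4.65 and 4.90 without HGF, against 8.86, 9.16 and 8.91 with it (4.04, SE 0.17, 16.4-fold). Cish, a STAT5 target of the same family, rose from 2.89, 2.66 and 3.11 to 7.07, 7.84 and 8.10 (4.78, SE 0.27). Stat3 itself rose from 8.76, 8.31 and 8.30 to 9.74, 9.56 and 9.50 (1.14, SE 0.15), and the phosphatase gene Ptpn2 by 1.80 (SE 0.15). Jak2 rose by 1.11 (SE 0.14). Lifr, the receptor of leukaemia inhibitory factor, fell by 0.56 on the log2 scale (SE 0.12), a call that ended without any 1 of 4 arrays (limma adjusted p up to 0.105).

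Of 27 tested positive acute phase proteins, 11 rose and 0 fell, with a median of 1.10, or 0.69 with a pseudocount of 16. Saa3 rose from 8.20, 7.39 and 7.05 to 12.82, 12.07 and 11.72 (4.66, SE 0.37). Serpina3n, a protease inhibitor, rose from 10.58, 10.40 and 10.10 to 12.61, 12.27 and 12.20 (2.00, SE 0.17), and the metalloreductase gene Steap4 by 3.81 (SE 0.27). The pentraxin gene Crp rose from 11.49, 11.47 and 11.42 to 12.63, 12.68 and 12.41 (1.11, SE 0.11, 2.16-fold). Other acute phase genes were not called, among them fibrinogen beta (Fgb), haptoglobin (Hp) and Orm1, which differed by 0.21, 0.17 and 0.24.

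Some acute phase genes already differed between the untreated livers. Saa2 lay at 10.81, 9.86 and 6.42 in the untreated livers and at 12.98, 12.03 and 12.45 with HGF (3.46, limma adjusted p = 0.0849), and Orm2 at 9.58, 6.45 and 5.22 against 11.42, 10.61 and 10.55 (3.78, limma adjusted p = 0.062). Lcn2, an iron-scavenging protein, lay at 9.49, 6.80 and 4.06 without HGF, against 12.70, 12.26 and 11.76 with it (5.46, SE 1.23, limma adjusted p = 0.0363). It was called, but the call ended without any 1 of 4 arrays. Replicate 1 without HGF was the highest and replicate 3 the lowest of the untreated livers in all 3 genes, and the same held for Saa1, at 12.63 in replicate 1 and 9.64 in replicate 3. Among the 429 risers, replicate 1 was the highest untreated array in 219 (51.0%). Of the proteins that fall in an acute phase, 0 of 11 tested genes were called, and Ttr and Apoa1 differed by -0.05 and -0.07.

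Interferon targets moved in part. Of 28 tested, 7 rose and 0 fell, with a median of 0.55. Irf1, a factor that both interferon and NF-kappaB induce, rose from 7.09, 7.35 and 6.85 to 10.53, 11.47 and 10.82 (3.84, SE 0.26), and Gbp2, a guanylate-binding protein, from 5.02, 5.04 and 3.83 to 9.40, 8.52 and 7.78 (3.93, SE 0.48). Irf8 rose by 2.50 (SE 0.25) and the peptide transporter gene Tap1 by 1.31 (SE 0.16). Of typical targets of type I interferon, Oasl1 rose by 1.42 (SE 0.31), a call that ended without any 1 of 3 arrays (limma adjusted p up to 0.0909). Ifit1 (1.06), Rsad2 (0.76) and Usp18 (0.64) were not called, but each was called without untreated replicate 2, at 1.56, 1.06 and 0.96 (limma adjusted p = 0.00634, 0.0235 and 0.00885).

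Metal, stress and glucocorticoid genes held the largest rise of all. Mt2, a metallothionein that binds zinc, lay at 5.00, 3.34 and 2.83 in the untreated livers and at 12.83, 12.49 and 12.42 with HGF (8.86, SE 0.52). Its neighbour Mt1 rose from 7.06, 5.50 and 5.03 to 12.94, 12.97 and 12.71 (7.01, SE 0.49). In both, untreated replicate 1 was highest. The zinc importer gene Slc39a14 rose by 1.73 (SE 0.24), while 6 other zinc genes were not called. Of 16 tested glucocorticoid and stress genes 9 rose and 0 fell. Except for Zbtb16 these risers, Mt1 and Mt2 among them, are on other lists too, so the list counts are not independent of each other. Cebpd, a C/EBP factor of the acute phase, rose from 5.30, 4.50 and 4.91 to 9.33, 9.47 and 9.13 (4.41, SE 0.21). Zbtb16 rose by 2.28 (SE 0.25) and Angptl4 by 1.76 (SE 0.17). The classical glucocorticoid targets Tsc22d3 (-0.47, and -0.64 to -0.19 without 1 array) and Tat (0.65) were not called, nor was Fkbp5 (1.68). Without HGF replicate 1 the difference of Fkbp5 was 0.76 and was called (limma adjusted p = 0.0104).

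Heme oxygenase, Hmox1, which breaks down heme, rose from 6.76, 6.37 and 5.19 to 9.53, 10.57 and 10.28 (4.02, SE 0.45), and its repressor Bach1 from 4.66, 4.44 and 4.82 to 6.23, 6.33 and 6.30 (1.65, SE 0.12). Other targets of the antioxidant factor NRF2 were not called, among them Nqo1 (-0.56), Gclc (-0.32) and Osgin1 (-0.96); 3 of the 18 on that list rose and 0 fell. In the heat shock list 2 of 9 rose, and in the ER stress list 0 of 21 were called.

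Genes of the cytoskeleton and of cell survival and death also held large rises. Rnd1, whose protein loosens actin fibres, lay at 3.89, 3.54 and 3.80 without HGF, against 11.34, 11.31 and 10.81 with it (7.41, SE 0.18, 170-fold). Rhob rose from 8.33, 8.03 and 7.83 to 11.52, 11.61 and 11.03 (3.33, SE 0.20), Rnd3 by 2.63 (SE 0.37) and the tubulin gene Tubb6 by 2.41 (SE 0.19); of the 18 tested members 5 rose and 0 fell. Of 13 survival and apoptosis genes 7 rose and 1 fell. The list holds genes that act for and against cell death, so the count has no single direction. Its risers included the receptor genes Fas (1.40, SE 0.23) and Tnfrsf1a (0.77, SE 0.11). Birc3 and its neighbour Birc2, inhibitors of cell death that act in TNF receptor signalling, rose from 5.61, 5.53 and 5.43 to 9.82, 9.47 and 9.07 (3.93, SE 0.19) and by 2.92 (SE 0.22). The kinase gene Pim3 rose by 1.83 (SE 0.29). Of the 24 listed cell cycle genes on the array only 6 were bright enough to test, and 0 of them were called. Ccnd1, a cyclin of the first gap phase, differed by -0.90 and Mcm6 by -0.70. Cdkn1a, the p21 inhibitor, was too dim for the test, at 2.19, 2.45 and 2.21 without and 5.98, 5.64 and 3.31 with HGF.

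**Figure D4:**
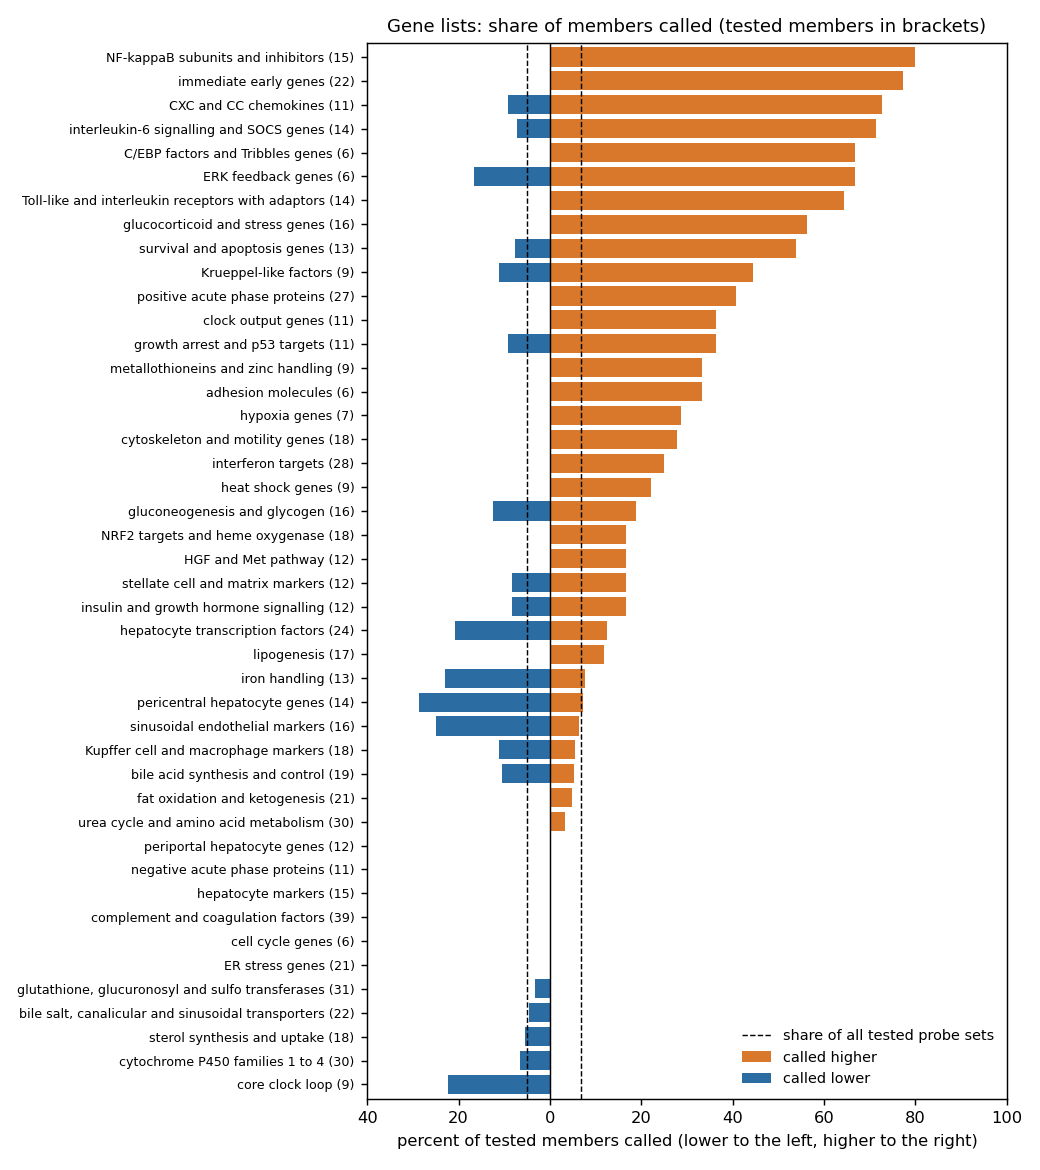
Percent of the tested members of each gene list that limma called higher (orange, to the right) or lower with HGF (blue, to the left), with the number of tested members in brackets. Lists with at least 6 tested members are shown, ribosomal and housekeeping genes left out. Some genes are on several lists. Dashed lines mark the shares over all tested probe sets, 6.70% higher and 5.08% lower. Members under the minimum throughout either group could be tested only through the other group. Among the lists shown the NF-kappaB list, with 12 of 15 members called higher, stands at the top, and 0 of 15 hepatocyte markers were called. Neutrophil markers (4 of 4 called higher) and cytokines (3 of 4) had too few tested members to be shown.

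Among the hepatocyte genes that fell, the largest falls were few, and most genes of hepatocyte metabolism were not called. G0s2, an inhibitor of the fat lipase ATGL, had the largest fall: it lay at 8.29, 9.23 and 9.65 in the untreated livers and at 4.10, 2.32 and 3.04 with HGF (-5.90, SE 0.51, 59.7-fold). Pnpla2, the gene of that lipase, rose by 0.87 (SE 0.12). Ppp1r3c, which brings protein phosphatase 1 to glycogen, fell from 8.95, 9.05 and 9.73 to 4.53, 3.99 and 4.98 (-4.75, SE 0.30, 26.9-fold). Arrdc3, an alpha-arrestin, fell from 9.17, 9.79 and 9.66 to 5.55, 3.91 and 6.08 (-4.36, SE 0.53). In these 3 the gap between the groups was over 3 log2 units.

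Glucose genes split. G6pc, the catalytic subunit of glucose-6-phosphatase that releases glucose to the blood, lay at 10.73, 10.06 and 10.42 without HGF, against 5.44, 6.37 and 8.45 with it (-3.65, SE 0.71, limma adjusted p = 0.021). HGF replicate 3 was the highest of the treated arrays. The call ended without any 1 of 4 arrays (limma adjusted p up to 0.0803). It held without HGF replicate 3 and without HGF replicate 1, where the difference was -4.50 and -2.99. Pck1, the other rate-limiting enzyme of gluconeogenesis, lay at 11.54, 11.08 and 11.51 without and at 12.32, 11.54 and 11.96 with HGF (0.56, limma adjusted p = 0.157), and was not called. Pfkfb3, which makes an activator of glycolysis, rose from 3.13, 2.64 and 3.0 to 7.62, 7.66 and 6.92 (4.48, SE 0.23). Igfbp1, a secreted binding protein of insulin-like growth factors, rose from 10.72, 10.65 and 9.12 to 13.68, 13.80 and 13.63 (3.54, SE 0.41). Of 16 tested genes of gluconeogenesis and glycogen, 3 rose and 2 fell.

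**Figure D5:**
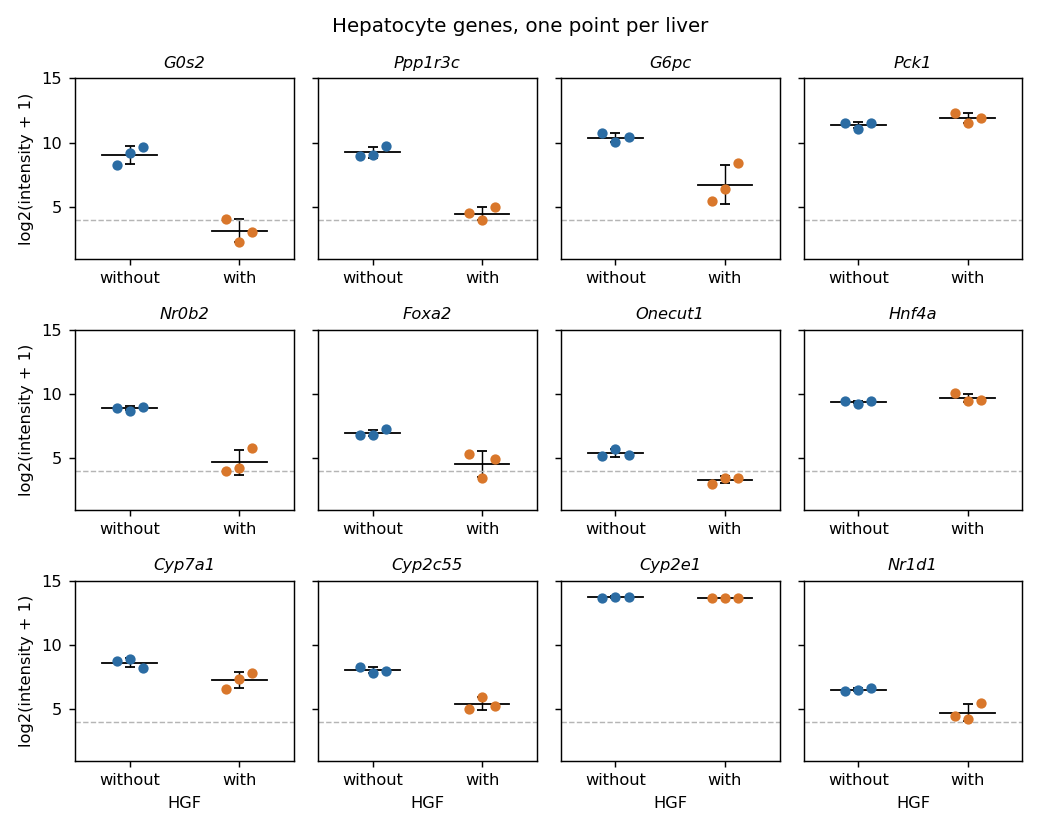
Log2(intensity + 1) of 12 hepatocyte genes (y axis), one point per liver, without HGF in blue and with it in orange; black bars are means and error bars SD over 3 livers, and the dashed line is the minimum of 4. G0s2, Ppp1r3c and Nr0b2 drop by more than 4 log2 units, while Pck1, Hnf4a and Cyp2e1, which were not called, differ by 0.56, 0.31 and -0.07.

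The factors that set hepatocyte identity moved in both directions. Of 24 tested hepatocyte transcription factors 5 fell and 3 rose. Nr0b2 (SHP), a nuclear receptor without a DNA-binding domain that represses bile acid synthesis, lay at 8.92, 8.69 and 9.02 in the untreated livers and at 3.99, 4.27 and 5.76 with HGF (-4.20, SE 0.44, 18.4-fold). Foxa2, a pioneer factor of liver genes, fell from 6.83, 6.83 and 7.25 to 5.32, 3.45 and 4.91 (-2.41, SE 0.46), and Onecut1 (HNF6) from 5.19, 5.75 and 5.24 to 3.03, 3.50 and 3.46 (-2.07, SE 0.20). The groups were clear of each other in all 3; the call of Foxa2 ended without any 1 of the arrays without HGF (limma adjusted p up to 0.077). Tbx3 fell by 1.51 on the log2 scale (SE 0.18) and Nr2f2 by 1.19 (SE 0.19). The call of Nr2f2 ended without untreated replicate 2 (limma adjusted p = 0.0502). Hhex, a homeobox factor of liver development, fell from 7.98, 7.99 and 8.18 to 5.24, 5.58 and 6.37 (-2.32, SE 0.28).

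Related factors went the other way. Nr5a2, which drives Cyp7a1 and is held back by Nr0b2, rose from 8.38, 8.48 and 8.46 to 9.79, 10.48 and 9.33 (1.43, SE 0.27), and Foxa3 by 0.90 (SE 0.19); their calls each ended without any 1 of 3 arrays, with limma adjusted p up to 0.0748 and 0.101. Ahr, the dioxin receptor gene, rose from 6.73, 6.72 and 6.54 to 7.30, 7.35 and 7.21 (0.62, SE 0.10). Hnf4a, the central factor of hepatocyte identity, lay at 9.44, 9.25 and 9.42 without and at 10.06, 9.46 and 9.53 with HGF (0.31), and was not called. Cebpa was lower on average (-0.63, limma adjusted p = 0.0539) and not called, while the related Cebpb rose from 8.48, 7.98 and 7.94 to 10.77, 10.48 and 10.54 (2.46, SE 0.17). Ppara, which controls fat oxidation, differed by -0.58 and was not called.

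In bile acid synthesis, 2 of 19 tested genes fell and 1 rose. Besides Nr0b2 the faller was Cyp7a1, the rate-limiting enzyme, which lay at 8.75, 8.89 and 8.21 without HGF, against 6.59, 7.38 and 7.82 with it (-1.36, SE 0.33, limma adjusted p = 0.0456). Its treated arrays spread over more than a log2 unit, and the call ended without any 1 of 4 arrays (limma adjusted p up to 0.144). Cyp8b1, the next branch enzyme, differed by 0.47 and was not called. Among 22 tested transporters of bile salts and other organic compounds 1 fell, Abcg8, a subunit of the sterol exporter of the canaliculus, from 7.38, 7.46 and 7.45 to 6.65, 6.52 and 6.28 (-0.95, SE 0.12). Its partner Abcg5 differed by -0.56 and was not called, but it was called without HGF replicate 1 (-0.85, limma adjusted p = 0.0232). The bile salt exporter gene Abcb11 (-0.21) and the uptake carrier gene Slc10a1 (-0.17) were not called.

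Drug-metabolising genes were mostly lower by small amounts. Few were called, as among all tested probe sets, of which 5.08% fell. Of 30 tested cytochrome P450 genes of families 1 to 4, 28 had a negative difference, 2 fell and 0 rose, with a median of -0.17 against -0.09 over all tested probe sets. Cyp2c55 fell from 8.27, 7.82 and 8.0 to 5.06, 6.00 and 5.22 (-2.61, SE 0.26, 6.09-fold) and stood alone in size. Cyp3a25 fell from 13.02, 12.89 and 12.99 to 12.49, 12.24 and 12.26 (-0.64, SE 0.11), a call that ended without replicate 1 or 3 of the group without HGF (limma adjusted p up to 0.0563). The bright member Cyp2e1 differed by -0.07, and Cyp3a11 by -0.12. Of 31 glutathione, glucuronosyl and sulfo transferases 28 were negative, with a median of -0.27, and 1 fell, Gstm3, from 11.40, 10.44 and 10.66 to 9.04, 9.62 and 9.59 (-1.42, SE 0.28). The call of Gstm3 ended without untreated replicate 3 or HGF replicate 2 (limma adjusted p up to 0.0626). Since the median of all probe sets is itself below 0 these small list medians describe the values and carry no test.

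In lipid metabolism the calls were few and went both ways. Of 18 tested genes of sterol synthesis and uptake 17 had negative differences, with a median of -0.32, but this rested on HGF replicate 1: without that array the median was 0.12. In this list 1 gene fell, Mvd, an enzyme of the mevalonate pathway (-1.03, SE 0.24), and its call ended without any 1 of 5 arrays. Aacs, which makes acetoacetyl-CoA in the cytosol, fell from 7.72, 7.46 and 7.73 to 4.82, 5.59 and 5.40 (-2.37, SE 0.21). Of 17 lipogenesis genes 2 rose: Lpin1, a phosphatidate phosphatase, from 7.59, 7.49 and 7.66 to 9.79, 8.71 and 9.46 (1.74, SE 0.26), and Elovl6 by 1.22 (SE 0.20). The call of Elovl6 ended without untreated replicate 2 (limma adjusted p = 0.0538). Srebf1, a factor that drives lipogenesis, differed by -1.19 and was not called (-0.72 without HGF replicate 1). Of 21 genes of fat oxidation and ketogenesis 1 rose, Angptl4, and 0 fell.

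The rest of hepatocyte function held few calls. Among 30 tested genes of the urea cycle and amino acid metabolism 1 rose, Gpt2 (0.64, SE 0.12), and 0 fell, and its call ended without untreated replicate 2 or 3. Among 39 complement and coagulation genes 0 were called, with a median of -0.10. In the pericentral zone, around the central vein, 4 of 14 genes fell and 1 rose, and in the periportal zone 0 of 12 were called. The pericentral fallers were Tbx3, Gstm3, Cyp7a1 and Lect2 (-0.52, SE 0.10), and the pericentral marker gene Cyp1a2 differed by -0.11. The call of Lect2 ended without any 1 of 4 arrays (limma adjusted p up to 0.0885), and those of Gstm3 and Cyp7a1 were likewise not stable.

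A few genes of the daily clock were called. Nr1d1 (REV-ERB-alpha), a repressor of the clock loop, lay at 6.44, 6.49 and 6.66 in the untreated livers and at 4.50, 4.26 and 5.48 with HGF (-1.78, SE 0.31); the call ended without untreated replicate 2 or 3 (limma adjusted p up to 0.0575). Cry2, another repressor, fell from 5.93, 5.78 and 6.04 to 4.50, 4.73 and 4.95 (-1.19, SE 0.14). The other 7 tested genes of the loop were not called, Bhlhe40 (1.35) and Clock (-0.10) among them. Noct (nocturnin), a rhythmic gene, rose from 5.41, 4.47 and 6.19 to 9.45, 8.44 and 7.75 (3.19, SE 0.55), a call that ended without untreated replicate 1 (limma adjusted p = 0.0525), and Dbp, a clock output factor, lay at 6.22, 5.91 and 7.50 against 5.21, 2.61 and 3.55 (-2.75, limma adjusted p = 0.0521). The hour at which each liver was taken was not given in the sources used here, so hour and treatment cannot be told apart for these genes.

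Markers of other liver cells moved in part. Of 16 tested sinusoidal endothelial genes 14 were negative, 4 fell and 1 rose, with a median of -0.34, and their summed intensity was 2730 to 2880 without HGF and 2190 to 2260 with it; 10 of the 28 on the array, Cdh5, Flt1 and Tie1 among them, were under the minimum throughout. Gpr182, a chemokine-binding receptor of these cells, fell from 6.49, 6.53 and 6.24 to 5.39, 5.72 and 5.41 (-0.91, SE 0.14), and Fcgr2b by 0.82 on the log2 scale (SE 0.14); the call of Fcgr2b ended without untreated replicate 2 or 3 (limma adjusted p up to 0.0593). Lyve1, a hyaluronan receptor of the same cells, rose from 3.94, 3.38 and 3.66 to 7.17, 5.71 and 5.94 (2.62, SE 0.38). The list thus held calls in both directions.

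Of 18 tested markers of Kupffer cells and macrophages 2 fell and 1 rose. Among all 18 the differences were negative in 12 and positive in 6, with a median of -0.18. The fallers were Slc40a1 and Vsig4 (-0.68, SE 0.15, limma adjusted p = 0.0329). Slc40a1, the iron exporter ferroportin, which macrophages and hepatocytes both use, fell from 9.85, 9.63 and 9.85 to 8.94, 8.62 and 8.66 (-1.04, SE 0.12). Marco, a scavenger receptor, rose from 4.74, 4.31 and 3.01 to 6.07, 6.62 and 6.14 (2.25, SE 0.43), a call that ended without replicate 2 of either group (limma adjusted p up to 0.0697). The markers Clec4f (-0.32) and Csf1r (-0.23) were not called, and the summed intensity of the 21 on the array was 5980 to 8660 without HGF and 5170 to 6560 with it. Of 12 stellate cell and matrix genes 2 rose and 1 fell. Col4a1, a basement membrane collagen, rose from 7.12, 7.29 and 6.54 to 8.84, 8.87 and 8.34 (1.70, SE 0.23), while Dcn was not called (0.09). The faller was Lum, a matrix proteoglycan gene (-0.78, SE 0.18), whose call ended without any 1 of the 6 arrays (limma adjusted p up to 0.117). Tcf21, a factor of mesenchymal cells that is not on that list, fell from 5.39, 5.07 and 5.86 to 2.68, 2.62 and 2.85 (-2.73, SE 0.20). Lymphocyte markers were under the minimum on all 6 arrays in 16 of 17 cases. The other, the immunoglobulin heavy chain gene Ighm, fell from 4.58, 4.53 and 4.38 to 3.58, 3.71 and 3.81 (-0.80, SE 0.11).

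Of 13 tested genes of iron handling, Slc40a1 included, 3 fell and 1 rose. Bmp2, the endothelial signal that induces hepcidin, fell from 7.0, 6.52 and 6.76 to 6.03, 6.15 and 6.16 (-0.65, SE 0.14), and Smad7, a feedback inhibitor of that pathway, by 1.08 on the log2 scale (SE 0.23). Their calls ended without any 1 of 5 and 4 arrays (limma adjusted p up to 0.103 and 0.109). Hamp, which encodes hepcidin, was not called (0.17).

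The risers included genes outside the lists. Calhm6 rose by 4.74 (SE 0.34), Hcar2, a receptor of ketone bodies and niacin, by 4.69 (SE 0.35) and the scaffold gene Akap12 by 4.64 (SE 0.46). Rcan1, an inhibitor of calcineurin, rose from 5.41, 5.17 and 5.07 to 9.60, 9.90 and 9.16 (4.34, SE 0.20). Outside the lists the fallers included Ccnf, which encodes cyclin F (-2.22, SE 0.24), the centromere gene Hjurp (-2.14, SE 0.28) and Anks4b (-2.07, SE 0.33).

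Genes that lie next to each other were sometimes called together. In the RefSeq gene order 2270 neighbouring pairs had both genes tested. Both rose in 26, both fell in 11 and they went opposite ways in 7. Over all tested probe sets 6.70% rose and 5.08% fell, so some such pairs arise without any link between neighbours. Whether the pairs exceed that number was not tested. The pairs that rose included relatives, Mt1 and Mt2, Cxcl1 and Cxcl2, Il1a and Il1b, S100a8 and S100a9, Birc2 and Birc3, Saa3 and Saa4, and Stat3 and Stat5a. Relatives can share sequence, so their probe sets may share signal. Pairs without likeness included Cebpb (2.46) beside Ptpn1 (1.48), and Pms1 (-1.72) beside Ormdl1 (-0.73) among the fallers. The call of Ormdl1 ended without any 1 of 4 arrays.

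The livers with HGF spread more widely than those without. The median SD of tested probe sets was 0.183 with HGF and 0.111 without, and for the risers it was 0.27 and 0.164. HGF replicate 3 was the lowest treated array in 267 of the 429 risers (62.2%), against 91 for replicate 1 and 71 for replicate 2. The median difference of the risers from the untreated mean was 1.38, 1.30 and 1.09 in HGF replicates 1, 2 and 3, and that of the fallers was -0.71, -0.74 and -0.64. These values describe genes chosen for their difference and carry no test. Among called genes with a wide spread in the treated livers were G6pc (3.01 log2 units between the highest and the lowest liver), Acod1 (3.0), a gene of activated macrophages, and the thrombomodulin gene Thbd (2.82), and in the untreated livers Lcn2 (5.43). The calls of Acod1 and Thbd ended without any 1 of 3 and 4 arrays (limma adjusted p up to 0.0643 and 0.0999).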

How the data were processed

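Total RNA of 12 mouse livers had been hybridised to Affymetrix arrays after one-cycle biotin labelling, per the labels' protocols, and the 6 control arrays were used here. The authors deposited linear intensities per probe set. Per the submitters' processing notes these come from GCRMA, which corrects background by the base composition of probes and normalizes between arrays; which release was used is not stated there. It compresses dim signals, and it hides any change common to most genes. The deposited table holds no detection calls used here, and 3 arrays per group limit the precision (median SE of a log2 difference 0.134).

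Of 16539 probe sets 64 were array controls; 15780 of the others had 1 gene symbol in the platform annotation and 695 none. Intensities were turned into log2(intensity + 1) and probe sets kept at 4 or more on at least 3 arrays. Limma 3.58.1 in R 4.3.3 was fitted with 2 group means, 4 residual degrees of freedom and empirical Bayes moderation, and tested on simulated data. Calls were made at a two-sided Benjamini-Hochberg adjusted p under 0.05.

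The members and the gene lists were chosen with earlier results of these data known. The naming rule allowed Met, Hgf, the 15 largest called rises and falls, the 5 smallest p, up to 6 called and up to 3 bright uncalled members of each list, any member of 7 lists (immediate early, ERK feedback, Met pathway, both clock lists, P450 and hepatocyte factors), called neighbours and cell type markers. Not every gene that this rule allowed is named here, called genes included. Genes chosen beyond it, after their values were seen, were Abcb11, Abcg5, Acod1, Akap12, Calhm6, Ccl5, Cxcl12, Cyp8b1, Fkbp5, Gclc, Hcar2, Hp, Ifit1, Lifr, Mcm6, Myd88, Nfkb2, Nfkbia, Nfkbiz, Nqo1, Orm1, Orm2, Osgin1, Rcan1, Rel, Rela, Rsad2, Saa1, Saa2, Serpina3n, Srebf1, Thbd and Usp18, and the untested Cdkn1a, Il6, Sele, Tlr4 and Tnf. Alternatives changed the groups fitted, the pairing, pseudocount, filter, scaling, variance model, array weights and the arrays included. RefSeq promoter windows and gene order were those of GRCm38.p6.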

Additional observations from a re-analysis of the deposited data

How the results depend on the processing

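Under 18 alternative settings none of the 754 calls turned its sign, but few of the settings could have turned one. Since the groups did not overlap for any call, leaving out or weighting arrays or a larger pseudocount could not do so. Most other settings keep the difference as it is, and only the scaling alternatives could have turned a sign. The number of probe sets called at all, higher, lower and at 2-fold or more was 36, 23, 13 and 21 with all 4 groups in one fit, and 482, 279, 203 and 198 where a value of 4 was asked of all 6 arrays. With a minimum of 6 on 3 arrays 494 were called, 201 of them lower and 216 at 2-fold or more. A limma test against a 1.2-fold change called 394, 106 of them lower, and array weights, which gave HGF replicate 1 a weight of 0.266, raised the calls lower to 497. Leaving out 1 array gave 390 to 948 calls in all, 275 to 482 higher, 110 to 466 lower and 285 to 373 at 2-fold or more. The fall to 424, 390 and 391 came without replicates 1, 2 and 3 of the livers without HGF and that to 505 without HGF replicate 2. The fits without 1 array have fewer degrees of freedom. Of 135 called genes named here, Fas, Tnfrsf1a and Vsig4 not counted, 105 were called in all 6 of these fits. Besides Ifit1, Rsad2, Usp18 and Fkbp5, other uncalled genes named here were called in some fit without 1 array. They were Abcg5, Bhlhe40, Ccnd1, Cebpa, Cyp8b1, Dbp, Egr1, Mcm6, Orm2, Osgin1, Saa2, Srebf1 and Traf2 (limma adjusted p down to 0.00422). Without 1 array, the difference of Met ran from -0.059 to 0.155, and was below 0 without untreated replicate 1 (-0.011) and without HGF replicate 3. The medians of 25 of 48 lists moved in some setting. Small intensities limit the folds: a larger pseudocount lowered the medians of lists with many dim genes. Deviations of livers with the same replicate number correlated at 0.106, 0.178 and 0.037, and those with unlike numbers at -0.186 to 0.077. Livers of the same number also had adjacent array numbers (1 and 2, 5 and 6, 3 and 4). These values do not settle whether the numbers pair the livers. No source used here names a pairing, so the main fit has none. With a replicate block 671 were called, 408 higher and 263 lower, 347 of them at 2-fold or more. Of the 671, 583 were among the 754.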
